A study of Arabidopsis thaliana with 19 samples.

Results

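The alpha-expansins described here are the products of 8 Arabidopsis thaliana genes, each read by 1 of the 22810 probe sets of the Affymetrix ATH1 array. They are a named set, given by probe set with earlier results of these data known, and not every alpha-expansin on the array: EXPA4 (AT2G39700), EXPA7 (AT1G12560), EXPA8 (AT2G40610), EXPA9 (AT5G02260), EXPA15 (AT2G03090), EXPA16 (AT3G55500), EXPA18 (AT1G62980) and EXPA20 (AT4G38210). Alpha-expansins are secreted proteins that loosen the plant cell wall without cutting its polysaccharides. They act best at acidic pH, and through them the wall yields when a growing cell acidifies it. EXPA7 and EXPA18 are known from root hair cells, where they take part in hair growth. No role in leaves is claimed here for the other members.

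The arrays came from young shoots of plants in which regulators of glucosinolates, sulfur-containing defence compounds, had been raised or targeted for silencing. All seedlings were 14 days old, had grown at 20 °C in days with 10 h light and 14 h dark, and had lost their cotyledons and hypocotyls before RNA was taken. The study held 19 arrays in 9 groups and 3 experiments. The first held MYB29_OE (2 arrays) and MYB76_OE (2), which overexpressed regulators of aliphatic glucosinolates, and their wild type WT_MYB29_MYB76 (3). The second held ATR1_OE (2) and MYB51_OE (2), which overexpressed regulators of indole glucosinolates, and WT_ATR1_MYB51 (2). The third held ATR1_like_miR (2) and MYB28_like_miR (2), each carrying an artificial microRNA, a small RNA made to silence selected genes, whose titles name the 35S promoter and a clade named after ATR1 or MYB28, and WT_miR (2). The promoter of the overexpression constructs, the ecotype and the number of independent lines behind a group are not given in the sources used here. Nothing says that replicates came from separate sowings, so p-values measure the spread between arrays, which may be technical.

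The values are MAS5 signals in arbitrary units, and array medians lay between 78.4 and 106. Signals under an array's 20th percentile, which lay between 12.4 and 19.1, were raised to it as a floor before log2 was taken. Tested were 15627 probe sets that reached an array's 40th percentile, between 42.7 and 60.5, on at least 2 arrays. Replicate arrays correlated with r from 0.911 to 0.986. The tissue was photosynthetic, with RCA, the activase of Rubisco, at 7056 to 13671 on the 19 arrays. LHCB4.1, LHCB4.2 and LHCB4.3, light-harvesting proteins, were also above the floor on every array. These genes do not tell leaves from other green parts. The annotation used lists no gene for 8794 probe sets, so a gene list can be empty or short here while the array measures its genes. No gene of the root or flower marker lists was named. Transcripts of 69 plastid-encoded genes lay at 2 levels, which divide the groups across the experiments, with a median log2 signal of 8.01 to 11.3 in WT_MYB29_MYB76, ATR1_like_miR and MYB28_like_miR and of 4.64 to 6.38 in all other groups. The transcripts of the introduced and targeted regulators were not analysed here.

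All 8 alpha-expansins passed the filter on low signals, but they did so by different margins. EXPA4, EXPA8 and EXPA15 lay above the 40th percentile on all 19 arrays, EXPA9 on 16 and EXPA16 on 13. EXPA20 did so on 5 arrays and EXPA7 and EXPA18 on 2 arrays each. EXPA7 and EXPA20 each lay at the floor on 5 arrays, and EXPA18 on none. The probe sequences were not used here, so hybridisation with related family members was not checked.

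**Figure D1:**
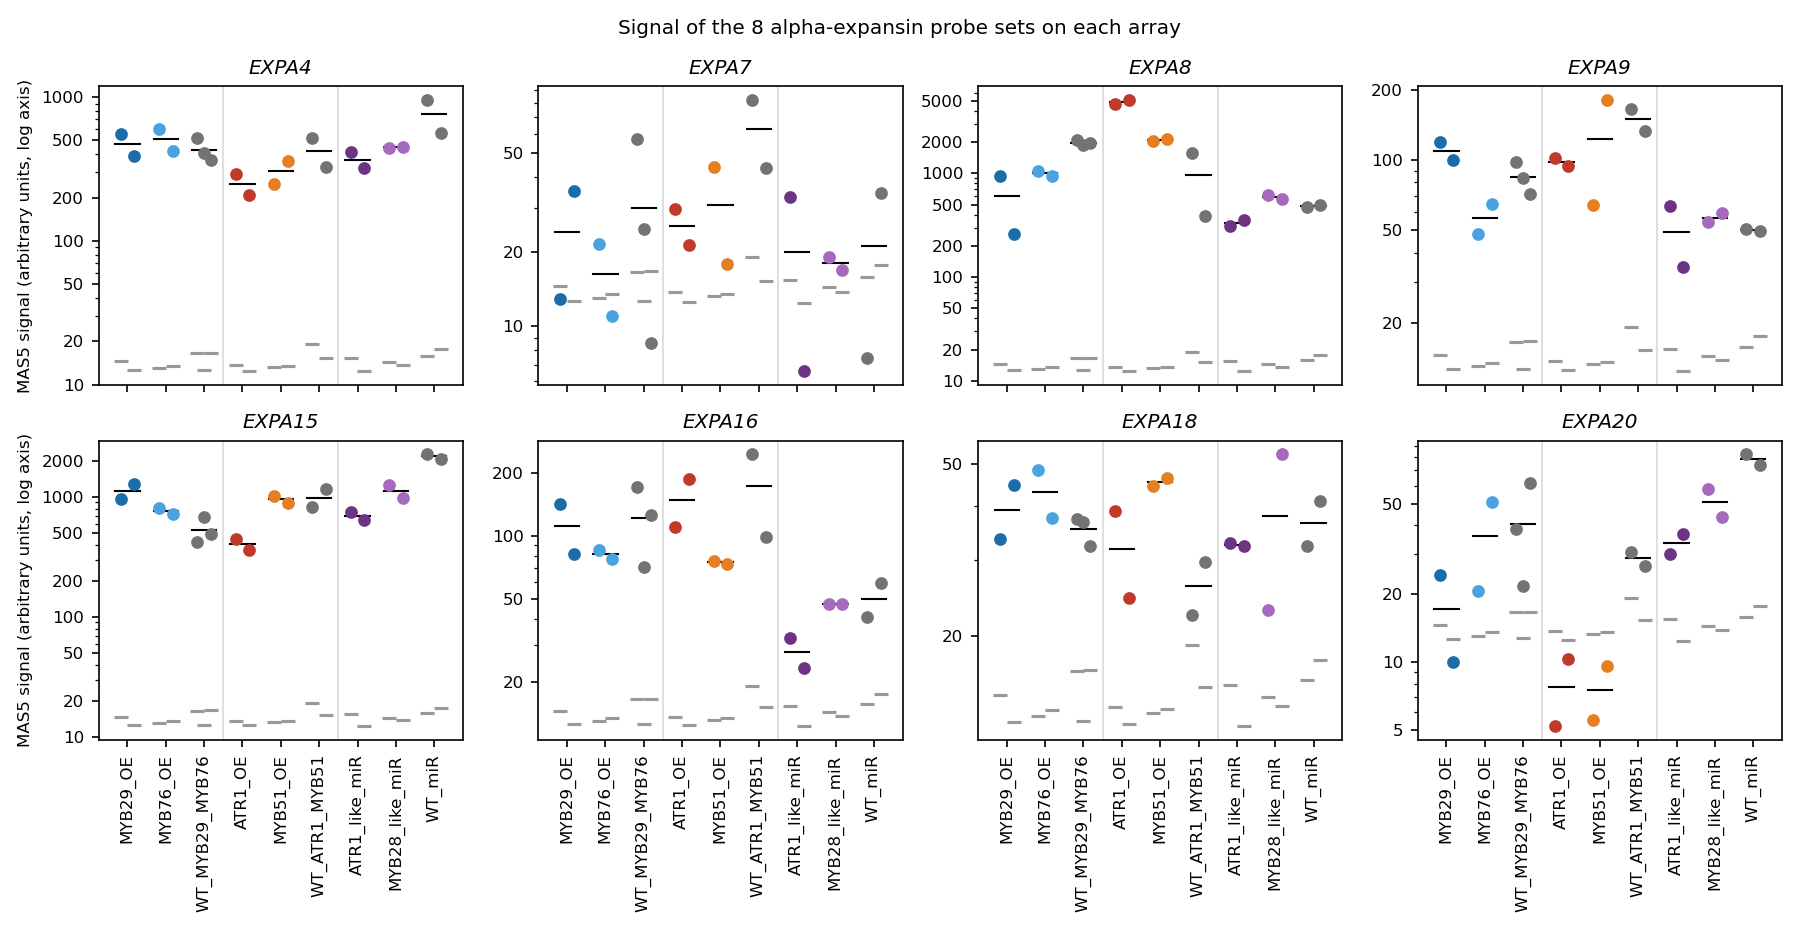
MAS5 signal (arbitrary units, log axis) of each alpha-expansin probe set on each of the 19 arrays, by group. Dots are arrays, black bars are group means, grey dashes are each array's 20th percentile floor, and grey vertical lines separate the 3 experiments. EXPA8 stands highest on the 2 ATR1_OE arrays (4665 and 5143), and EXPA20 lies under the floor on all 4 ATR1_OE and MYB51_OE arrays.

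EXPA8 varied most across the groups. Its signal was 939 and 263 in MYB29_OE and 1062 and 952 in MYB76_OE, against 2106, 1881 and 1965 in WT_MYB29_MYB76. It was 4665 and 5143 in ATR1_OE and 2033 and 2131 in MYB51_OE, against 1563 and 385 in WT_ATR1_MYB51. It was 309 and 358 in ATR1_like_miR and 562 and 618 in MYB28_like_miR, against 473 and 494 in WT_miR. Each overexpression group lay apart from its own wild type, on the low side for MYB29_OE and MYB76_OE and on the high side for ATR1_OE and MYB51_OE. The 2 arrays of WT_ATR1_MYB51 stood far apart, and so did those of MYB29_OE. From high to low mean signal the order was ATR1_OE, MYB51_OE, WT_MYB29_MYB76, MYB76_OE, WT_ATR1_MYB51, MYB29_OE, MYB28_like_miR, WT_miR and ATR1_like_miR, and 4 of the 8 pairs of neighbours did not overlap.

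EXPA15 differed from wild type in the opposite sense to EXPA8 in MYB29_OE, MYB76_OE and ATR1_OE. Its signal was 962 and 1290 in MYB29_OE and 802 and 715 in MYB76_OE, against 424, 683 and 495 in WT_MYB29_MYB76. It was 451 and 364 in ATR1_OE and 1024 and 896 in MYB51_OE, against 819 and 1159 in WT_ATR1_MYB51. It was 747 and 647 in ATR1_like_miR and 978 and 1247 in MYB28_like_miR, against 2273 and 2085 in WT_miR. ATR1_OE was low and both artificial microRNA groups lay below their wild type with no overlap, while MYB51_OE lay within the range of WT_ATR1_MYB51. From WT_miR at the top to ATR1_OE at the bottom, 6 of the 8 pairs of neighbours in the order of means overlapped.

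The other members had lower signals or smaller differences. EXPA4 ranged over the arrays between 207 and 960, with its lowest mean, 250 ± 60.8 (SD, n = 2), in ATR1_OE and its highest, 762 ± 280 (SD, n = 2), in WT_miR, and all 8 pairs of neighbouring groups overlapped. EXPA9 ranged between 34.7 and 181, and EXPA16 between 23.3 and 245. Both were lowest in ATR1_like_miR, at means of 49.0 ± 20.3 and 27.9 ± 6.49 (SD, n = 2), and both highest in WT_ATR1_MYB51, at 149 ± 22.0 and 172 ± 104 (SD, n = 2). EXPA16 was at or under 59.3 on every array of the third experiment and at or over 70.6 on every array of the other two.

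The root hair members and EXPA20 were near the floor. EXPA7 ranged between 6.57 and 82.5 and was above the 40th percentile only on 1 array of WT_MYB29_MYB76 and 1 of WT_ATR1_MYB51. EXPA18 ranged between 22.4 and 52.8, and all 8 pairs of neighbouring groups overlapped for it, as they did for EXPA7. EXPA20 was at 5.20 and 10.2 in ATR1_OE and at 5.51 and 9.54 in MYB51_OE, all under the floor, against 30.6 and 26.6 in WT_ATR1_MYB51. EXPA20 was at 29.9 and 36.7 in ATR1_like_miR and at 43.5 and 58.0 in MYB28_like_miR, against 82.6 and 73.9 in WT_miR, so that it was at its highest in the wild type of the third experiment.

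In MYB29_OE EXPA8 and EXPA15 differed from WT_MYB29_MYB76 in opposite directions. With the wild types of the other experiments as control EXPA8 stood at -0.30 and EXPA15 at -0.39 on the log2 scale, neither called. EXPA8 fell 3.99-fold, to 601 ± 478 in MYB29_OE (SD, n = 2) against 1984 ± 113 in WT_MYB29_MYB76 (SD, n = 3), a log2 change of -2.00 ± 0.47 (SE; limma adjusted p = 0.0124). EXPA15 rose 2.13-fold, to 1126 ± 232 in MYB29_OE against 534 ± 134 in WT_MYB29_MYB76, a log2 change of 1.09 ± 0.23 (SE; limma adjusted p = 0.00653). These were the 2 members of 8 that passed the test, against 14.7% of all probe sets tested (8.09% higher and 6.63% lower). For 3 members the arrays did not overlap, against 44.7% of all probe sets. EXPA20 was 24.1 and 9.95 in MYB29_OE, against 38.7, 21.7 and 61.9 in WT_MYB29_MYB76, 2.14-fold lower with a limma adjusted p of 0.117 and 1 MYB29_OE array at the floor, and was called at a log2 change of -1.49 (adjusted p = 0.0321) without WT_MYB29_MYB76 replicate 2. The calls of EXPA8 and EXPA15 were lost without MYB29_OE replicate 2, where the log2 values were -1.08 for EXPA8 and 0.88 for EXPA15. That fit left 1 MYB29_OE array, and calls over all probe sets tested also became fewer in it.

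In MYB76_OE no member passed limma's test, against 12.8% of all probe sets tested. EXPA8 stood at 1007 ± 78.0 in MYB76_OE (SD, n = 2) against 1984 ± 113 in WT_MYB29_MYB76 (SD, n = 3), a log2 difference of -0.98 ± 0.47 (SE; limma adjusted p = 0.177). EXPA15 stood at 758 ± 61.7 in MYB76_OE against 534 ± 134 in WT_MYB29_MYB76, a log2 difference of 0.53 ± 0.23 (SE; limma adjusted p = 0.134), and was called at 0.72 (adjusted p = 0.0361) without WT_MYB29_MYB76 replicate 2. Arrays of 4 members did not overlap, against 46.7% of all probe sets. The median of the 8 log2 values was 0.02 in MYB29_OE and -0.35 in MYB76_OE, beside 0.06 and 0.05 over all probe sets tested. Beside these values, the summed signal of the 69 plastid-encoded genes was 3534 to 4315 in MYB29_OE and 3440 to 3712 in MYB76_OE, against 65521 to 207280 in WT_MYB29_MYB76, and its part in the expansin differences was not tested. EXPA8 lay between 1881 and 2106 on the 3 WT_MYB29_MYB76 arrays, over which the plastid median spanned 8.01 to 11.3. None of these arrays is of the lower plastid level, so they do not compare the levels. Of 3 markers of the stomatal lineage, SPCH, MUTE and FMA, MUTE rose in MYB29_OE, by 1.28 on the log2 scale (limma adjusted p = 0.0343). FMA fell by 0.98 in MYB76_OE (limma adjusted p = 0.0328). The sums over the 3 markers were 561 to 754 in MYB29_OE and 277 to 363 in MYB76_OE, against 372 to 566 in WT_MYB29_MYB76. The trichome regulator TRY, the 1 trichome marker named, also fell in both lines, by 2.19 on the log2 scale in MYB29_OE (limma adjusted p = 0.000676) and fell by 2.54 in MYB76_OE (limma adjusted p = 0.000182). Less RNA per cell and fewer cells of a type cannot be told apart in these whole-shoot samples.

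ATR1_OE had the largest EXPA8 difference among the 6 comparisons with wild type, and EXPA15 differed the other way again. EXPA8 rose 6.32-fold, to 4904 ± 338 in ATR1_OE against 974 ± 833 in WT_ATR1_MYB51 (SD, n = 2 each), a log2 change of 2.66 ± 0.51 (SE; limma adjusted p = 0.00353). EXPA15 fell 2.41-fold, to 407 ± 61.6 in ATR1_OE against 989 ± 240 in WT_ATR1_MYB51 (SD, n = 2 each), a log2 change of -1.27 ± 0.25 (SE; limma adjusted p = 0.00392). The 2 calls among 8 members compare with 15.2% of all probe sets tested (5.54% higher and 9.62% lower), and 6 members had arrays that did not overlap, against 59.1% of all. Both calls were lost without WT_ATR1_MYB51 replicate 2, which had the lower EXPA8 and the higher EXPA15 signal of the 2 WT_ATR1_MYB51 arrays. Without it the log2 values were 1.65 for EXPA8 and -1.02 for EXPA15. That fit left 1 wild type array of this experiment, and calls over all probe sets tested also became fewer in it. Without WT_ATR1_MYB51 replicate 1 EXPA8 stood at 3.67.

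The remaining members were mostly lower in ATR1_OE without passing the test. EXPA4 was 293 and 207 in ATR1_OE, against 516 and 328 in WT_ATR1_MYB51, a log2 difference of -0.74 (limma adjusted p = 0.137). EXPA20, at the floor on both ATR1_OE arrays, was at least 2.18-fold lower there than in WT_ATR1_MYB51 (limma adjusted p = 0.143). With the floor at the 10th percentile EXPA20 was called (adjusted p = 0.0437). The median of the 8 log2 values was -0.67, beside -0.13 over all probe sets tested. The summed signal of the 4 leaf markers was 36571 to 45103 in ATR1_OE, against 30793 to 32965 in WT_ATR1_MYB51, and none of the 4 was called. SPCH, a regulator of the stomatal lineage, fell by 1.52 on the log2 scale (limma adjusted p = 0.00958). The part of these markers in the expansin values was not tested. The plastid sums overlapped here, at 5714 to 8808 in ATR1_OE and 4528 to 8922 in WT_ATR1_MYB51.

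In MYB51_OE no member passed limma's test, against 1.38% of all probe sets tested. EXPA8 stood at 2082 ± 70.0 in MYB51_OE against 974 ± 833 in WT_ATR1_MYB51 (SD, n = 2 each), a log2 difference of 1.42 ± 0.51 (SE; limma adjusted p = 0.284), and was called at 2.44 (adjusted p = 0.0143) without WT_ATR1_MYB51 replicate 1. EXPA15 stood at 960 ± 90.4 in MYB51_OE and 989 ± 240 in WT_ATR1_MYB51 (SD, n = 2 each), a log2 difference of -0.02. EXPA16 was 76.1 and 73.7 in MYB51_OE, against 245 and 98.8 in WT_ATR1_MYB51, a log2 difference of -1.06 (limma adjusted p = 0.385). EXPA20, at the floor on both MYB51_OE arrays, was at least 2.13-fold lower there (limma adjusted p = 0.438). Arrays of 4 members did not overlap, against 37.8% of all probe sets, and the median of the 8 log2 values was -0.46, beside -0.07 over all.

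Both artificial microRNA lines had less EXPA15 transcript than their wild type. EXPA15 fell 3.13-fold, to 697 ± 70.5 in ATR1_like_miR against 2179 ± 133 in WT_miR (SD, n = 2 each), a log2 change of -1.65 ± 0.25 (SE; limma adjusted p = 0.0021). EXPA15 fell 1.97-fold, to 1112 ± 190 in MYB28_like_miR against the same WT_miR arrays, a log2 change of -0.98 ± 0.25 (SE; limma adjusted p = 0.031). The call in ATR1_like_miR held without each of the 4 arrays, and the call in MYB28_like_miR was lost without any 1 of the 4, at adjusted p from 0.0721 to 0.178 by limma. EXPA15 was the 1 called member of 8 in each line. Of all probe sets tested, 2.02% were called in ATR1_like_miR (1.15% lower) and 6.43% in MYB28_like_miR (4.37% lower).

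All 8 members had a negative log2 value in ATR1_like_miR, with a median of -0.69 beside -0.10 over all probe sets tested. In MYB28_like_miR 6 were negative, with a median of -0.22 beside -0.14. EXPA4 was 412 and 322 in ATR1_like_miR and 447 and 445 in MYB28_like_miR, against 960 and 564 in WT_miR, log2 differences of -1.01 and -0.72 (limma adjusted p = 0.128 and 0.19). EXPA20 differed by -1.24 in ATR1_like_miR and by -0.64 in MYB28_like_miR on the log2 scale (limma adjusted p = 0.235 and 0.477). EXPA8 differed by -0.54 in ATR1_like_miR and by 0.29 in MYB28_like_miR (limma adjusted p = 0.662 and 0.785). Arrays of EXPA4, EXPA8, EXPA15 and EXPA20 did not overlap with those of WT_miR in both comparisons, and EXPA16 joined them in ATR1_like_miR and EXPA9 in MYB28_like_miR, 5 members in each against 51.5% and 55.5% of all probe sets. The summed plastid-encoded signal was 118674 to 155424 in ATR1_like_miR and 116590 to 147432 in MYB28_like_miR, against 2558 to 4221 in WT_miR, and its part in the EXPA15 difference was not tested. The summed leaf markers were 19748 to 20387 in ATR1_like_miR and 22848 to 23417 in MYB28_like_miR, against 18694 to 21694 in WT_miR. No leaf marker was called in either line.

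**Figure D2:**
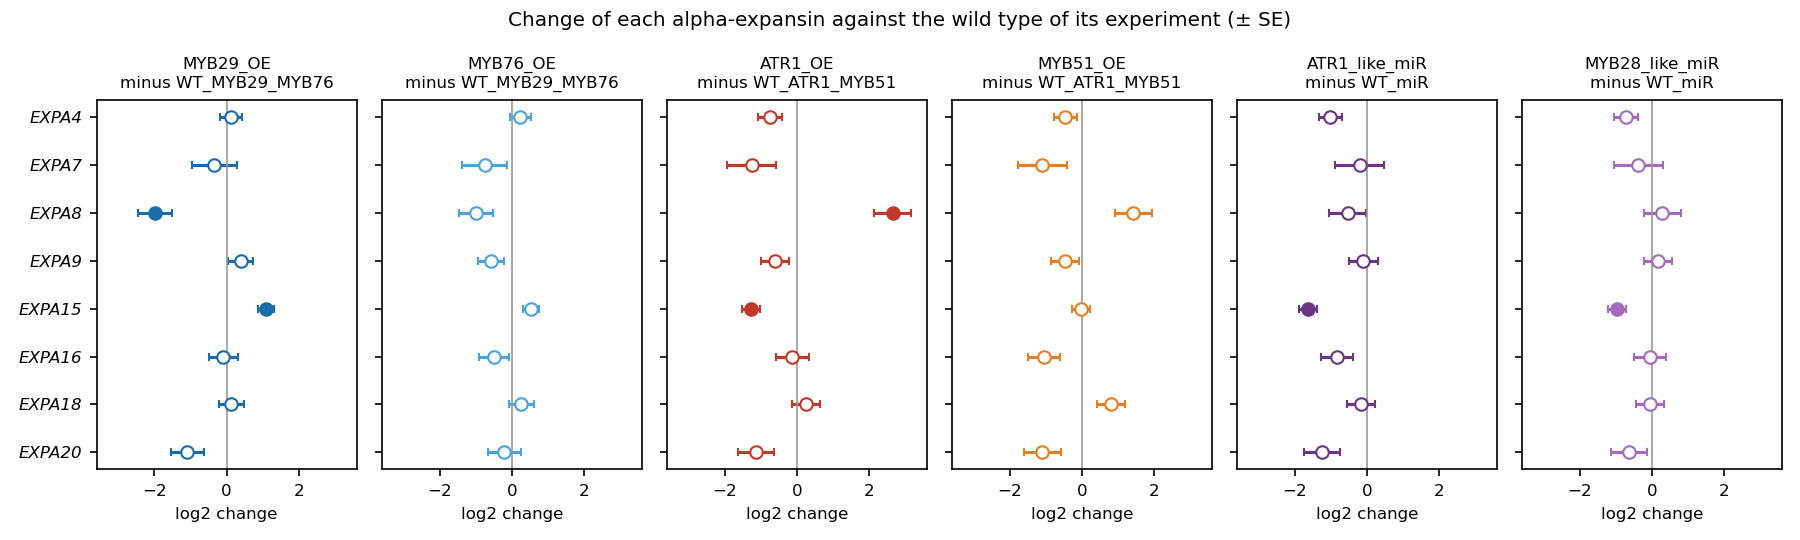
Log2 change of the 8 alpha-expansins in each of the 6 lines against the wild type of its own experiment. Points are limma estimates, bars are their standard errors, and filled points passed the test at an adjusted p under 0.05. EXPA8 lies at -2.00 in MYB29_OE and at 2.66 in ATR1_OE, and EXPA15 at 1.09 and -1.27 in the same lines.

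Differences between lines of one experiment do not involve a wild type group. Between MYB29_OE and MYB76_OE no member passed limma's test, against 0.0256% of all probe sets tested. On the log2 scale EXPA9 differed by 0.97, EXPA15 by 0.56 and EXPA8 by -1.02 between MYB29_OE and MYB76_OE, with limma adjusted p of 1.0 for each. Between ATR1_OE and MYB51_OE EXPA15 alone among the 8 passed, against 2.67% of all probe sets, at -1.24 ± 0.25 (SE; limma adjusted p = 0.0181). That call was lost without ATR1_OE replicate 1 (adjusted p = 0.0577), ATR1_OE replicate 2 (0.118) or MYB51_OE replicate 1 (0.118), and with each experiment fitted alone (0.1). EXPA8 differed between ATR1_OE and MYB51_OE by 1.23 (limma adjusted p = 0.203). Between ATR1_like_miR and MYB28_like_miR no member passed, against 0.032% of all probe sets. Among the 8 members EXPA15, at -0.67, had the lowest limma adjusted p (0.556).

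The 2 kinds of overexpression were compared as a difference of differences. The mean change of MYB29_OE and MYB76_OE against their wild type was set against the mean change of ATR1_OE and MYB51_OE against theirs. EXPA8 gave -3.53 ± 0.59 (SE; limma adjusted p = 0.0015) and EXPA15 gave 1.46 ± 0.29 (SE; limma adjusted p = 0.00391). These were the 2 members of 8 that passed, against 18.1% of all probe sets tested. The means over lines combine unlike values: EXPA15 stood at -1.27 in ATR1_OE and -0.02 in MYB51_OE, and no member was called in MYB76_OE or MYB51_OE. In the same contrast 46 of 68 plastid-encoded genes tested were called lower, with a list median of -3.85, and so were TRY (-1.68, limma adjusted p = 0.0132) and LHCB4.3, 1 of 4 leaf markers (-1.88, limma adjusted p = 0.0331), and their part in the expansin values was not tested. Both expansin values kept their direction without each of the 13 arrays in turn, but their size moved. EXPA8 stood at -4.54 without WT_ATR1_MYB51 replicate 1 and at -2.52 without WT_ATR1_MYB51 replicate 2. EXPA15 stood at 1.71 and 1.21 in the same 2 fits. With the wild types not subtracted, a comparison chosen after the data were seen, the values were -2.18 for EXPA8 (adjusted p = 0.000774) and 0.56 for EXPA15 (adjusted p = 0.0324), and the 2 kinds of line were then also from different experiments, so that line and experiment cannot be told apart.

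The wild types of the 3 experiments differed in several alpha-expansins. WT_MYB29_MYB76 and WT_ATR1_MYB51 differed in EXPA15 alone, at -0.90 ± 0.23 (SE; limma adjusted p = 0.0305), 1 member of 8 against 6.69% of all probe sets, and the call was lost without WT_MYB29_MYB76 replicate 1 or 3 or WT_ATR1_MYB51 replicate 2. EXPA8, at 1.35 (limma adjusted p = 0.0948), was called at 2.37 (adjusted p = 0.00981) without WT_ATR1_MYB51 replicate 1. WT_MYB29_MYB76 and WT_miR differed in 3 members, against 21.2% of all: EXPA8 at 2.04, EXPA15 at -2.06 and EXPA16 at 1.22 (limma adjusted p = 0.0073, 3.93e-05 and 0.0455). EXPA8 lost its call there without WT_miR replicate 1 (adjusted p = 0.056), and EXPA16 lost its call without any 1 of 4 of the 5 arrays and under 5 of 7 other alternatives. WT_ATR1_MYB51 and WT_miR differed in 3 members, against 13% of all: EXPA9 at 1.57, EXPA15 at -1.16 and EXPA16 at 1.66 (limma adjusted p = 0.015, 0.00672 and 0.0228). All 3 lost their calls without WT_ATR1_MYB51 replicate 1 or WT_miR replicate 1, and EXPA9 also without WT_miR replicate 2. The leaf marker sums were 28614 to 32149 in WT_MYB29_MYB76 and 30793 to 32965 in WT_ATR1_MYB51, against 18694 to 21694 in WT_miR. Of the 68 plastid-encoded genes tested, 49 were called higher in WT_MYB29_MYB76 than in WT_ATR1_MYB51 and 60 higher than in WT_miR, and 2 were called higher in WT_ATR1_MYB51 than in WT_miR. TRY was higher by 1.77 in WT_MYB29_MYB76 and by 1.37 in WT_ATR1_MYB51 than in WT_miR (limma adjusted p = 0.00199 and 0.0202). FMA, 1 of the 3 stomatal lineage markers, was higher by 1.25 and 1.47 in the same comparisons (limma adjusted p = 0.00636 and 0.00575). The median over the 3 stomatal lineage markers was -0.13 and 0.26 there, and no other of them was called. Their sums were 372 to 566 in WT_MYB29_MYB76 and 572 to 651 in WT_ATR1_MYB51, against 506 to 538 in WT_miR. The part of these markers in the expansin differences was not tested.

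The choice of control arrays moved several values. EXPA8 in ATR1_OE was called with its own wild type, with all 7 wild type arrays (2.27, adjusted p = 0.0207) and with the wild types of the other experiments (2.12, adjusted p = 0.0318). EXPA8 in MYB29_OE stood at -1.03 (adjusted p = 0.496) and -0.30 (adjusted p = 0.896) with those control sets. EXPA15 in ATR1_OE kept its size, at -1.21 and -1.19, and lost its call (adjusted p = 0.101 and 0.122), while EXPA20 in ATR1_OE, at the floor on both ATR1_OE arrays, was called lower with both (adjusted p = 0.0297 and 0.0124). EXPA4 in ATR1_OE was also called with both, below wild type (limma adjusted p = 0.0463 and 0.0302). EXPA15 in MYB29_OE was 0.25 with all 7 wild type arrays and -0.39 with those of the other experiments, neither called by limma. EXPA15 in ATR1_like_miR was -0.43 and 0.0515, and in MYB28_like_miR 0.23 and 0.72, with none of these 4 values called. EXPA16 in MYB28_like_miR was called at -1.46 (adjusted p = 0.0236) with the wild types of the other experiments.

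**Figure D3:**
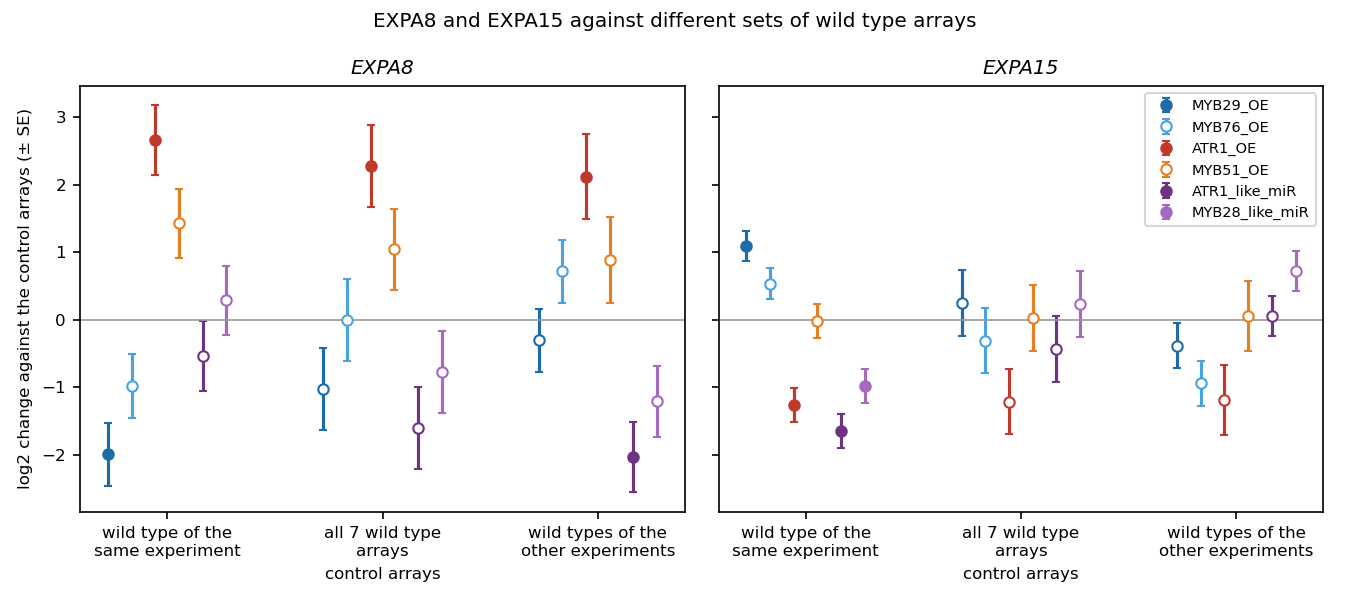
Log2 change of EXPA8 and EXPA15 in the 6 lines under 3 choices of control arrays: the wild type of the same experiment, all 7 wild type arrays, and the wild types of the other experiments. Colours are lines, bars are standard errors, and filled points passed limma's test at an adjusted p under 0.05. EXPA8 in ATR1_OE stays between 2.12 and 2.66, and EXPA15 in MYB28_like_miR runs from -0.98 to 0.72.

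Over the 19 arrays, which share groups and experiments, EXPA8 and EXPA15 ran against each other, with a Pearson r of -0.67 of log2 signal and a Spearman rho of -0.59. Without the 2 arrays farthest from the median of EXPA8, and with group means kept, r was -0.51. Within groups, after each group's mean was removed, r was -0.62 over all 19 arrays, and it was not taken with arrays left out. In a group of 2 arrays the values left after the mean is removed mirror each other. The within-group values of all pairs thus rest on 10 residual degrees of freedom and not on 19 separate arrays. EXPA8 ran with EXPA16 (r = 0.65, and 0.70 within groups), and EXPA15 ran against EXPA16 (-0.43, and -0.81 within groups, the strongest within-group value). EXPA9 ran with EXPA16 over the 19 arrays (r = 0.70) and less within groups (0.23). For EXPA4 and EXPA15 r was 0.57 over the 19 arrays and -0.24 within groups. Without the 2 arrays farthest from the median of EXPA9 r was 0.75 for the first pair. Without those farthest from the median of EXPA4 r was 0.20 for the second. These values are a description, among 28 pairs of members. The spread of EXPA8 within groups was widest in MYB29_OE and WT_ATR1_MYB51, with SDs of 478 and 833 about means of 601 and 974.

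**Figure D4:**
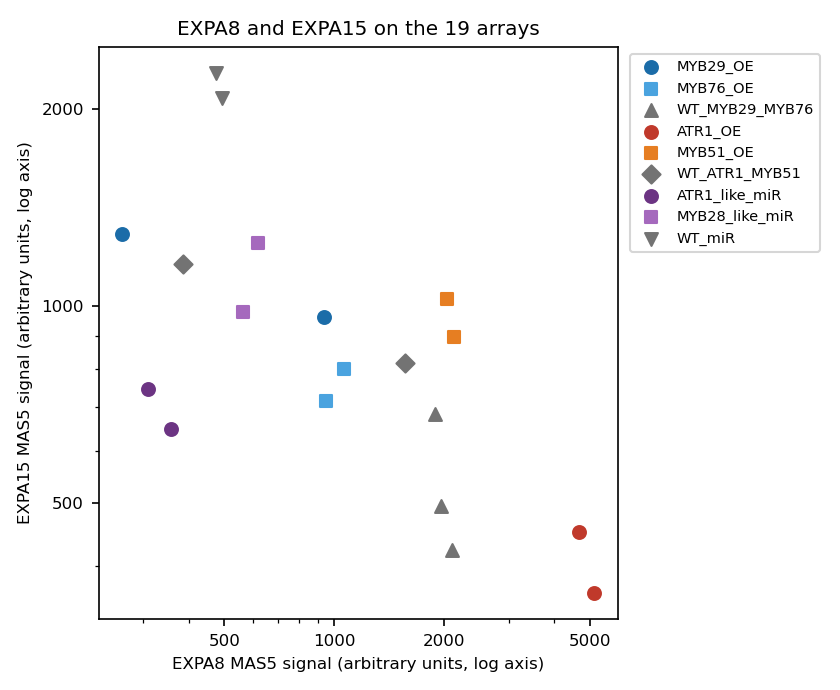
EXPA15 against EXPA8 signal on each of the 19 arrays (MAS5, arbitrary units, both axes logarithmic), with a colour and shape for each group. The 2 ATR1_OE arrays lie at the lower right, with EXPA8 at 4665 and 5143 and EXPA15 at 451 and 364, and the 2 WT_miR arrays at the upper left, with EXPA15 at 2273 and 2085.

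The genes whose log2 signal was most like that of a member were taken from 8576 other probe sets of a single named gene, by Pearson r over the 19 arrays. For EXPA8 they were AT1G63540 (0.93), AT3G61260 (0.91) and AT5G43450 (0.91). For EXPA15 they were PAC (AT2G48120, 0.87), ETL1 (AT2G02090, 0.85) and AT5G48760 (0.83). The closest gene was AT1G11125 for EXPA4 (0.87), AT2G41040 for EXPA9 (0.85), AT2G32160 for EXPA16 (0.89) and AT4G27300 for EXPA20 (0.89). The low-signal members had weaker neighbours, AT1G27070 for EXPA7 (0.78) and AT1G30690 for EXPA18 (0.67). No other member was among the 3 closest genes of any member.

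Among other genes of the growing wall, 4 lists with 23 tested genes gave 7 calls in the 6 comparisons with wild type, or 5.07% of 138 values, against 8.74% of all values over the probe sets tested. Of 11 other expansins named on the array 6 were tested, and none rose. EXLB1, an expansin-like protein, fell to 34.2 ± 5.89 in MYB29_OE and 30.8 ± 7.36 in MYB76_OE (SD, n = 2 each), against 114 ± 22.7 in WT_MYB29_MYB76 (SD, n = 3), changes of -1.73 and -1.89 (limma adjusted p = 0.00142 and 0.000686). The other wild types were lower in EXLB1 too, at 47.4 ± 11.6 in WT_ATR1_MYB51 and 51.1 ± 6.35 in WT_miR (SD, n = 2 each). WT_MYB29_MYB76 stood above them by 1.27 and 1.14 on the log2 scale (limma adjusted p = 0.018 and 0.0116). EXPB3, a beta-expansin, fell to 328 ± 24.1 in ATR1_OE against 656 ± 183 in WT_ATR1_MYB51 (SD, n = 2 each), a change of -0.97 (limma adjusted p = 0.015). EXPB3 and EXPA15 were thus both lower in ATR1_OE.

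Of 10 named xyloglucan endotransglucosylase/hydrolases, enzymes that cut and rejoin xyloglucan chains, 3 were tested, and XTH16 rose in MYB28_like_miR, to 880 ± 241 against 437 ± 44.2 in WT_miR (SD, n = 2 each; 0.99 on the log2 scale, limma adjusted p = 0.0321). None of 10 tested genes of cellulose and related polysaccharide synthesis was called by limma in the 6 comparisons. An unadjusted p under 0.05 was reached by 8 of these 60 values, and the share of all probe sets at that threshold was not taken. Of 6 named genes of pectin modification 4 were tested. PME61, a pectin methylesterase family member, fell 2.14-fold in MYB29_OE (limma adjusted p = 0.046) and 4.03-fold in MYB76_OE (0.00192), and ATPMEPCRB, of the same family, rose 2.63-fold in MYB76_OE (0.0225). The wall protein list held 1 named gene, PRP39, which is known from pre-mRNA processing and not from the wall, and rose by 0.85 on the log2 scale in MYB29_OE (limma adjusted p = 0.0166) and by 0.99 in MYB76_OE (0.00794). Water channels and acid growth genes had no named member in the annotation used.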

How the data were processed

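RNA of 19 samples was hybridised to 1 array each. The deposited values are MAS5 signal intensities on a linear scale, summarised by the authors with MAS5 per the submitters' processing notes, with no version given, and each array's mean signal without the lowest and highest 2% of values lay at 250 (249.9 on every array). Replicates were not pooled. Arrays were grouped by title. The source field of MYB28_like_miR replicate 2 names the other construct, and the title was followed. No scan dates were used here, and the number of arrays limits the precision.

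Signals were floored at each array's 20th percentile and taken to log2. Probe sets at or over the 40th percentile on at least 2 arrays were tested, without 64 control probe sets. A model of group means was fitted by lmFit of limma 3.58.1 and moderated by eBayes with a trend (R 4.3.3, 19 arrays), with 10 residual and 5.62 prior degrees of freedom, two-sided, and with Benjamini-Hochberg adjustment over the 15627 probe sets tested. An adjusted p under 0.05 is called. The fit was tested on simulated data. Names came from the array annotation and RefSeq genes of TAIR10.1: 13513 probe sets had 1 gene, 503 several and 8794 none listed. No base or protein sequences were used.

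The members and the gene lists were chosen with earlier results of these data known. Named are the members, the 3 genes closest to each by r, and up to 4 called genes per list and comparison. Alternatives were quantile normalisation, a 10th percentile floor, no floor with log2(signal + 16), no filter, a 60th percentile filter, no trend, each experiment alone, other wild type arrays as control, the replicate number as a block, and leaving out each array. Plots were made in Python 3.11.15 (matplotlib 3.10.9).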

Additional observations from a re-analysis of the deposited data

Results flagged for a closer look

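Differences between groups stood out for EXPA8 and EXPA15. The change of EXPA8 under aliphatic regulators (MYB29_OE and MYB76_OE) differed from that under indole regulators (ATR1_OE and MYB51_OE) by -3.53 on the log2 scale (SE 0.59, limma adjusted p = 0.0015). EXPA15 differed in the same test by 1.46 (SE 0.29, limma adjusted p = 0.00391). In direct comparison of the lines of one experiment, EXPA15 differed between ATR1_OE and MYB51_OE by -1.24 (SE 0.25, limma adjusted p = 0.0181).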

How the results depend on the processing

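The difference of EXPA8 and of EXPA15 between the 2 kinds of overexpression kept its direction and its call without each of 13 arrays. The same held under the 8 other alternatives run for it. Among these 8 was the comparison without wild types, chosen after the data were seen, in which line and experiment cannot be told apart. There EXPA8 stood at -2.18 and EXPA15 at 0.56. Other wild type arrays as control were not tried for this difference. For EXPA8 its size moved, to -4.54 without WT_ATR1_MYB51 replicate 1 and to -2.52 without WT_ATR1_MYB51 replicate 2. With all 7 wild type arrays 0 members were called in MYB29_OE, ATR1_like_miR and MYB28_like_miR. Of all 15627 probe sets tested, 217, 135 and 278 were called there. With the wild type of the same experiment these numbers were 2301, 315 and 1005. With the wild types of the other experiments 0 were called in MYB29_OE, 1 in MYB51_OE (EXPA20) and 3 in ATR1_like_miR (EXPA8, EXPA9 and EXPA16). In MYB28_like_miR 1 was called (EXPA16 in place of EXPA15). Of all probe sets tested, 236, 560, 2277 and 1952 were called in these comparisons, in that order, and 215 in MYB51_OE with its own wild type. The number called over the whole array thus moved with the control arrays too. EXPA15 changed sign at -0.39 in MYB29_OE, 0.0515 in ATR1_like_miR and 0.72 in MYB28_like_miR with the wild types of the other experiments, and at 0.23 in MYB28_like_miR with all 7. With each experiment fitted alone 0 were called between ATR1_OE and MYB51_OE. Of all probe sets tested, 11 were called there, against 417 in the fit of all arrays. The causes were not tested.

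Leaving out 1 array gave 0 to 3 called members in MYB29_OE, 0 to 1 in MYB76_OE, 0 to 2 in ATR1_OE, 0 to 1 in MYB51_OE, 1 in ATR1_like_miR and 0 in MYB28_like_miR. It gave 0 between MYB29_OE and MYB76_OE, 0 to 1 between ATR1_OE and MYB51_OE, 0 between the artificial microRNA lines, 2 for the difference of differences, 0 to 2 between WT_MYB29_MYB76 and WT_ATR1_MYB51, 1 to 3 between WT_MYB29_MYB76 and WT_miR, and 0 to 4 between WT_ATR1_MYB51 and WT_miR. Where a group was left with 1 array, that array was assumed to vary like the other groups. The number of all probe sets called also moved with the array left out. In MYB29_OE it was 1528, 2865 and 1616 of 15627 without WT_MYB29_MYB76 replicate 1, 2 and 3, against 2301 with all arrays. The counts of members are thus not read as particular to the alpha-expansins. Of 520 single values from left-out arrays 487 kept their side of the threshold, 26 lost a call and 7 gained one.

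Replicate numbers did not pair the arrays: residuals of same-numbered arrays correlated with r from -0.218 to 0.158. With the replicate block 0 members were called between WT_MYB29_MYB76 and WT_ATR1_MYB51, beside 798 of all probe sets tested, against 1045 without the block. EXPA16 lost its call between WT_MYB29_MYB76 and WT_miR (limma adjusted p = 0.0953), and no other call of a member changed. Under quantile normalisation, which moved the median of all probe sets to -0.01 in ATR1_OE and -0.03 in MYB28_like_miR, no member lost a call. Low signal limits EXPA7, EXPA18 and EXPA20.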
